A study of Mus musculus with 6 samples.

Results

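The CXCL12 chemokine axis was followed through whole mouse adrenal glands by 3 genes: Cxcl12, which encodes the chemokine, Cxcr4, which encodes its signalling receptor, and Ackr3, which encodes its scavenger receptor. The 3 genes were chosen by symbol and found by their Ensembl identifiers, and all 3 were present among the 54532 genes of the count table. Cxcr4 had been picked because earlier work on these same libraries placed it among the genes with the smallest p, so its difference between the groups is given as a description with no test, and the same holds for the other members. Transcripts were measured by bulk RNA sequencing in 3 samples labelled VEGF/LysM and 3 labelled WT, each of fresh whole adrenal gland. LysM is another name of the myeloid lysozyme gene Lyz2, whose promoter is widely used to direct Cre recombinase to macrophages, neutrophils and other myeloid cells, and the series asks how the gland depends on VEGF-A made by macrophages. The labels give no allele, strain, sex, age or treatment, and they do not say whether replicates are separate animals, so the spread between samples may be technical.

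CXCL12 is a secreted chemokine of stromal and some endothelial cells that holds and attracts cells bearing CXCR4. CXCR4 couples to Gi proteins, and it is made by leukocytes of many kinds, B cells prominent among them, and by endothelial cells at sprouting vessel tips and in arteries. ACKR3, once called CXCR7, does not couple to G proteins in the classical way. It binds CXCL12 and the vasoactive peptide adrenomedullin and takes them up for degradation.

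The 3 genes begin in stretches of different base composition, shown here because differences in level are measured at the transcripts these stretches start. The 250 bases before each RefSeq start (GRCm38.p6) are printed 5′ to 3′ on the gene's strand, with capitals marking matches on either strand to the NRF1 site (GCGCA followed directly by its reverse complement TGCGC), to the hypoxia response core ACGTG or GCGTG, to the TATA box TATAAA and to the GC box GGGCGG. They cover chr1:128592300-128592549 (minus strand) for Cxcr4, chr6:117168285-117168534 (plus strand) for Cxcl12 and chr1:90203730-90203979 (plus strand) for Ackr3.
Cxcr4: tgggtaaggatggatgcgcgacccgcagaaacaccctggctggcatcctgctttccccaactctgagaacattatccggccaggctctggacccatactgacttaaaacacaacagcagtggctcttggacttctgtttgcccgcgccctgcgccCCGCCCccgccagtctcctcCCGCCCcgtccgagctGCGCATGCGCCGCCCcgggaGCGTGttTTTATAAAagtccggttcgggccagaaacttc
Cxcl12: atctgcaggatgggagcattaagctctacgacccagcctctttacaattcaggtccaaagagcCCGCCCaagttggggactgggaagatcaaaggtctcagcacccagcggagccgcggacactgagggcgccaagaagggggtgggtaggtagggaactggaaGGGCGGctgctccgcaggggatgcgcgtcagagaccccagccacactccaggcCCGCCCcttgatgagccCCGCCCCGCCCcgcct
Ackr3: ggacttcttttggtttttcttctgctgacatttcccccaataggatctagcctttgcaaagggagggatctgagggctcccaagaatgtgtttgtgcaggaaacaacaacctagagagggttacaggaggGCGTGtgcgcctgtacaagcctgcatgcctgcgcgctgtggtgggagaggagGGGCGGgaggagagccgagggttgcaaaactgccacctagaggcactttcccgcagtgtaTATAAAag

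The Cxcr4 stretch held a full NRF1 site, whose last base overlaps a GC box, and such a site occurred in 0.782% of the 32851 RefSeq stretches of the same length. NRF1 is known, in human cells, as an activator of the CXCR4 promoter. The hypoxia response core, the sequence that HIF factors bind, stood once in Cxcr4 and once in Ackr3, and 38.6% of all stretches hold it. A TATA box began 30 bases before the start in Cxcr4, where matches on both strands overlap, and 8 bases before it in Ackr3. Of all stretches, 12.4% hold a TATA box at any position. Cxcl12 had 5 GC boxes and Cxcr4 3, and 32.7% of all stretches have at least 1. These are matches of letters, not measured sites.

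Library totals ran from 16476879 to 18671950 counts, and 16300 genes passed the filter on low counts, all 3 members among them. Steroid-making markers were abundant in every library, among them Star, which carries cholesterol into mitochondria, at 11710 to 16990 CPM in VEGF/LysM and 10807 to 13376 CPM in WT. WT replicate 3 stood apart from the rest: Alb, serum albumin of liver cells, was at 51376 CPM there (counts relative to the TMM-scaled library size), while VEGF/LysM replicate 3 had 169 CPM and the other 4 libraries 0.0569 to 1.06 CPM, and markers of kidney tubules and lymphocytes were also high in WT replicate 3. The log2 fold changes of the 3 genes are therefore also given without it, as are many of the list medians. Vegfa, the gene named in the label, had 180, 193 and 501 CPM in the VEGF/LysM libraries and 295, 241 and 332 CPM in the WT libraries, with overlap, and since many gland cells make it this checks the labels poorly. At a Benjamini-Hochberg threshold of 0.05, edgeR's quasi-likelihood fit gave 0 calls in either direction over 16300 genes (0.0%), with 459 (2.82%) at an unadjusted p under 0.05, while DESeq2 called 0 (542 unadjusted) and limma-voom 0 (224 unadjusted).

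Cxcr4 (ENSMUSG00000045382, chromosome 1, 128588199 to 128592293, minus strand, GRCm38, with no other annotated gene overlapping it) was lower in every VEGF/LysM library than in any WT library. It stood at 23.0, 17.8 and 23.1 CPM in VEGF/LysM replicates 1 to 3, from 393, 339 and 393 counts. In WT replicates 1 to 3 it stood at 44.8, 33.7 and 46.2 CPM, from 787, 654 and 622 counts. The highest VEGF/LysM value was thus below the lowest WT value, and the liver-bearing WT replicate 3 lay beside WT replicate 1. Means were 21.3 ± 3.04 CPM in VEGF/LysM and 41.6 ± 6.83 CPM in WT (SD, n = 3 each), a log2 fold change of -0.96 ± 0.19 (SE, 95% interval -1.42 to -0.50), or 0.514 times the WT level. Counting error alone, at 3.56% to 5.43% of each value, was smaller than the spread between libraries. Over all genes tested, 5.95% had groups that did not overlap, 2.41% lay wholly lower in VEGF/LysM and 5.63% had a log2 fold change as low as that of Cxcr4 or lower. As Cxcr4 was chosen on this contrast, nothing is read from its place in that background.

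**Figure D1:**
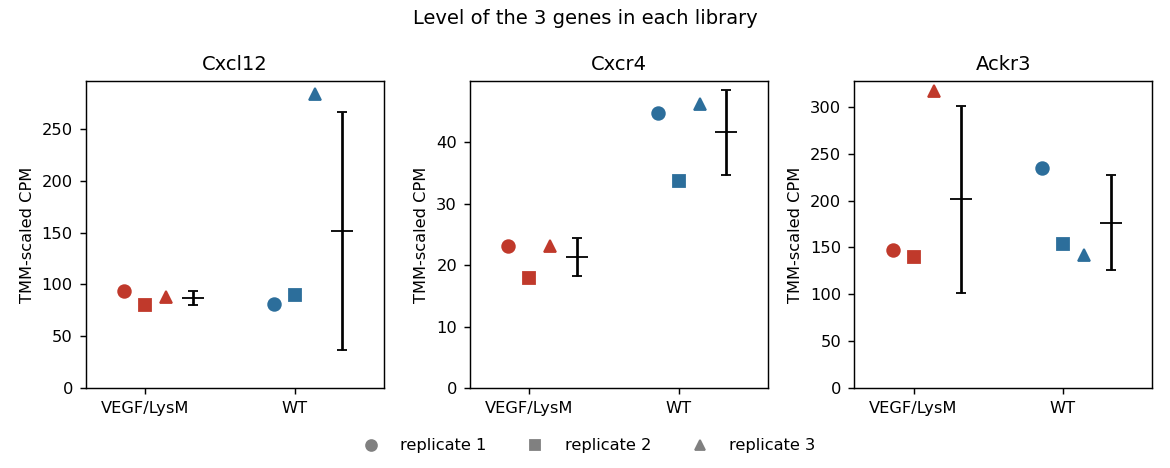
Level of Cxcl12, Cxcr4 and Ackr3 in TMM-scaled CPM (each vertical axis from 0) in the 3 VEGF/LysM and 3 WT libraries; marker shapes give the replicate, and the black bars the mean and SD. Cxcr4 stands at 17.8 to 23.1 CPM in VEGF/LysM and 33.7 to 46.2 CPM in WT, while single libraries set the spread of Cxcl12 (WT replicate 3, 284 CPM) and Ackr3 (VEGF/LysM replicate 3, 317 CPM).

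Leaving out any single library kept the Cxcr4 log2 fold change between -1.09 and -0.87. Without WT replicate 3 it was -0.88, and without both libraries that carried liver transcripts it was -0.94. As the Cxcr4 groups do not overlap, leaving out libraries could hardly turn its direction, so these values add no support to the difference. In a whole gland, fewer cells of a Cxcr4-bearing type and less Cxcr4 RNA per cell cannot be told apart, so Cxcr4 was next set against marker genes of the cell types that make it, within each library.

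Relative to endothelial transcripts Cxcr4 was also lower in VEGF/LysM. There were 1.998, 1.55 and 2.16 Cxcr4 counts per 100 counts of 16 pan-endothelial markers in VEGF/LysM replicates 1 to 3, and 3.75, 2.91 and 4.55 in WT replicates 1 to 3. The groups did not overlap on this ratio, which contains the Cxcr4 counts already described and adds little to them, since the marker sum was nearly level. Its log2 difference was -0.96, or -0.81 without WT replicate 3. The endothelial markers themselves varied little, with a summed level of 1069 to 1153 CPM in VEGF/LysM and 1016 to 1192 CPM in WT, none at 0 in any library, and 0 of 16 called by edgeR. Pecam1, an adhesion molecule of endothelial junctions, stood at 96.9, 107.5 and 82.7 CPM in VEGF/LysM and at 102, 109.5 and 107 CPM in WT. Cdh5, the cadherin of the same junctions, stood at 82.0, 83.2 and 64.0 CPM in VEGF/LysM and at 68.8, 96.9 and 74.3 CPM in WT. In both genes the groups overlapped. The VEGF receptor Kdr and the diaphragm protein Plvap had log2 fold changes of 0.15 ± 0.14 and 0.01 ± 0.20 (SE). The smallest p in that list belonged to Tek, the angiopoietin receptor TIE2, and Mmrn2, an endothelial matrix protein, at 0.26 ± 0.19 and 0.23 ± 0.18.

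Markers of the endothelial states in which Cxcr4 is known to be high gave no call. Of 14 genes of tip and sprouting cells, 7 had a log2 fold change above 0 and 7 below, with a median of 0.02 (-0.08 without WT replicate 3) and 0 called, against a median of 0.0013 over all genes tested. Esm1, a proteoglycan of tip cells, was at 20.8, 22.2 and 16.4 CPM in VEGF/LysM and at 20.3, 18.8 and 8.54 CPM in WT. Apln, a peptide ligand made by tip cells, was at 7.86, 7.89 and 8.12 CPM in VEGF/LysM and at 8.87, 10.6 and 4.60 CPM in WT. Both were lowest in WT replicate 3, the library with the most liver transcripts. Cxcr4 stood at 46.2 CPM there, close to the 44.8 CPM of WT replicate 1. The part of tip cells in the Cxcr4 values was not tested. Angpt2, a TIE2 ligand of sprouting vessels, stood at -0.36 ± 0.32 (SE) on the log2 scale, and the laminin chain Lamb1 at 0.23 ± 0.19. Of 12 arterial genes 4 were above 0 and 8 below, with a median of -0.08 (-0.10 without WT replicate 3) and 0 called. Gja5, a connexin of arterial endothelium, had a log2 fold change of -0.61 ± 0.41 (SE) at a level of 0.938 to 2.89 CPM, where counts are few. Stmn2, which neurons also make, had -1.08 ± 0.62 with overlap. Per 100 tip-cell counts Cxcr4 stood at 2.10, 1.51 and 2.38 in VEGF/LysM and at 4.46, 2.93 and 5.17 in WT, again without overlap, and the log2 difference was -1.05, or -0.88 without WT replicate 3. This ratio too contains the Cxcr4 counts already described. Against steroid-making cortex and chromaffin markers Cxcr4 also did not overlap, with log2 differences of -1.22 and -1.34. Without WT replicate 3, where both marker sums were lowest, these were -0.93 and -1.04. Against capsule, fibroblast and mural markers Cxcr4 did overlap (-0.77, or -0.70 without WT replicate 3). The separation is thus not particular to endothelial markers.

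Relative to leukocyte transcripts the picture depended on WT replicate 3. There were 8.78, 7.28 and 6.33 Cxcr4 counts per 100 counts of 14 pan-leukocyte markers in VEGF/LysM replicates 1 to 3, and 17.3, 9.68 and 3.73 in WT replicates 1 to 3. WT replicates 1 and 2 lay above all VEGF/LysM libraries and WT replicate 3 below them, so the groups overlapped. The log2 difference was -0.21 with all libraries and -0.81 without WT replicate 3. Without WT replicate 1, the library with the highest ratio, it turned to 0.30.

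Leukocyte markers summed to 1238 CPM in WT replicate 3, against 245 to 365 CPM in VEGF/LysM and 259 and 348 CPM in WT replicates 1 and 2. Ptprc, the leukocyte surface protein CD45, stood at 21.1, 15.2 and 41.3 CPM in VEGF/LysM and at 17.9, 25.7 and 159 CPM in WT. Cd79a, a chain of the B cell receptor, stood at 3.63, 2.10 and 0.824 CPM in VEGF/LysM and at 4.15, 5.41 and 71.8 CPM in WT. Cd3e, a chain of the T cell receptor complex, stood at 0.704, 0.789 and 1.06 CPM in VEGF/LysM and at 0.512, 1.08 and 14.035 CPM in WT. All 3 peaked in WT replicate 3 by a wide margin, while Cxcr4 there was 46.2 CPM, against 44.8 CPM in WT replicate 1. Cd37, a tetraspanin of leukocytes, lay wholly lower in VEGF/LysM, at 5.39, 6.31 and 6.59 CPM against 8.99, 10.5 and 81.7 CPM in WT. It was the only 1 of the 14 pan-leukocyte markers whose groups lay apart, against 5.95% of all genes (2.41% wholly lower). Of the 14 markers, 0 were called in edgeR's test. With all libraries the 14 markers had a median of -0.995 on the log2 scale. Once WT replicate 3 was dropped, the median rose to -0.03, while Cd37 itself stood at -0.68. The list as a whole was thus nearly level outside that library.

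B cells are prominent among Cxcr4-bearing leukocytes, and their markers were again highest in WT replicate 3. The 11 markers summed to 43.0, 37.0 and 24.1 CPM in VEGF/LysM and to 36.7, 59.3 and 436 CPM in WT. The median log2 fold change of the 9 tested was -3.56, or -0.88 without WT replicate 3, with 0 called in edgeR's test. At an unadjusted p under 0.05 there were 7 of these 9, all lower, against 1.94% of all genes. Without WT replicate 3 there were 2, against 2.09% of all genes in that fit, in either direction. Of the 9, 6 lay wholly lower in VEGF/LysM, against 2.41% of all genes, among them Blk, a kinase of B cell receptor signalling, at 0.879, 0.789 and 0.235 CPM in VEGF/LysM and 1.54, 1.70 and 19.6 CPM in WT. None of the B cell markers was at 0 in any library. Per 100 B cell marker counts Cxcr4 stood at 53.5, 48.2 and 95.9 in VEGF/LysM and at 122, 56.8 and 10.6 in WT, with overlap. The log2 difference of that ratio was 0.58, and it turned to -0.41 without WT replicate 3. Among the summed B cell markers, Ebf1, named after its values were seen, stood at 24.7, 24.6 and 15.9 CPM in VEGF/LysM. In WT it stood at 17.1, 28.3 and 26.9 CPM. Outside WT replicate 3 the B cell sum and the ratio thus rest in large part on Ebf1. The part of B cells in the Cxcr4 values was not tested.

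Macrophage and monocyte markers summed to 558 to 745 CPM in VEGF/LysM and to 670 to 858 CPM in WT, and the 17 genes had a median log2 fold change of -0.0016 (-0.05 without WT replicate 3) with 0 called. Adgre1, the macrophage surface protein F4/80, was at 22.7, 13.5 and 24.1 CPM in VEGF/LysM and at 11.2, 21.5 and 15.7 CPM in WT. Per 100 of these counts Cxcr4 stood at 3.63, 3.19 and 3.11 in VEGF/LysM and at 6.68, 3.93 and 5.75 in WT, without overlap, and the log2 difference was -0.69, or -0.63 without WT replicate 3. That ratio again contains the Cxcr4 counts already described. Lyz2, the gene that LysM names, is itself in that list. It lay wholly lower in VEGF/LysM, at 132, 111 and 134 CPM against 186, 275 and 263 CPM in WT. Its lower counts make the VEGF/LysM marker sums lower and the VEGF/LysM ratios higher. Mean Lyz2 was 126 CPM in VEGF/LysM and 241 CPM in WT, a large part of the gap between the sums. Reads of its near-identical neighbour Lyz1 could be counted to it. The median of the T and NK cell markers was -2.25, which became -0.06 once WT replicate 3 was left out, with 0 called. Neutrophil markers summed to at most 9.59 CPM in VEGF/LysM and 8.02 CPM in WT, with 7 of the 10 at 0 in at least 1 library, among them S100a8, a calcium-binding protein of neutrophils.

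**Figure D2:**
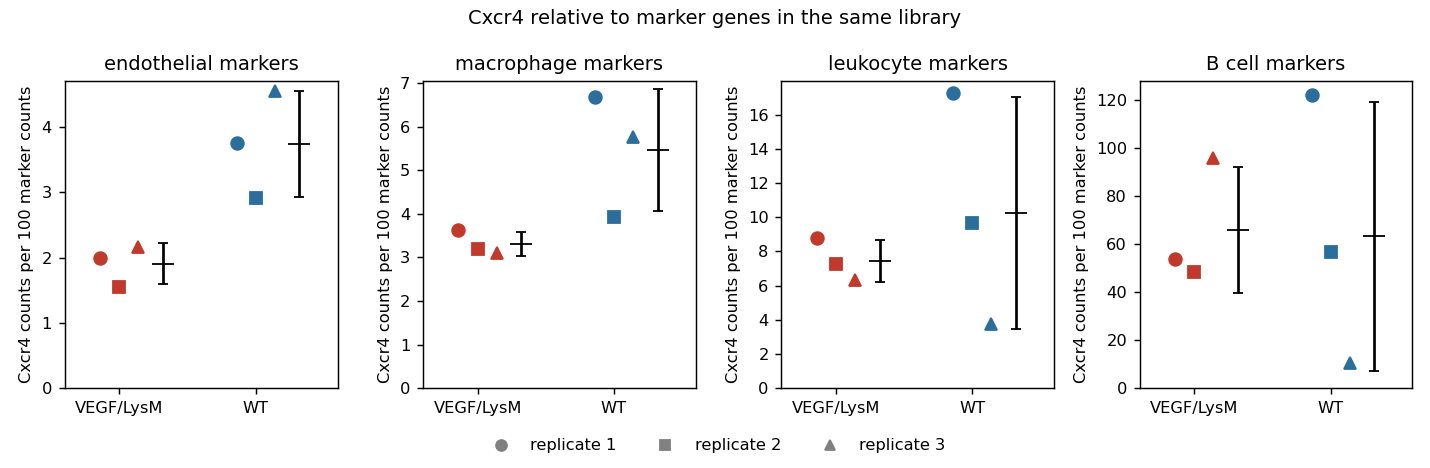
Cxcr4 counts per 100 counts of pan-endothelial, macrophage, pan-leukocyte and B cell markers in the same library (each vertical axis from 0), for VEGF/LysM and WT; shapes give the replicate, black bars the mean and SD. The endothelial and macrophage ratios do not overlap between the groups, while WT replicate 3 is the lowest library on the leukocyte (3.73) and B cell (10.6) ratios.

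Cxcl12 (ENSMUSG00000061353, chromosome 6, 117168535 to 117181367, plus strand) was nearly level in 5 of the 6 libraries and high in WT replicate 3. It stood at 94.0, 80.6 and 87.5 CPM in VEGF/LysM replicates 1 to 3, and at 81.2, 89.7 and 284 CPM in WT replicates 1 to 3. Without WT replicate 3 the highest library was only 1.17 times the lowest. Means were 87.4 ± 6.72 CPM in VEGF/LysM and 152 ± 115 CPM in WT (SD, n = 3 each), with a log2 fold change of -0.79 ± 0.48 (SE, 95% interval -1.92 to 0.33). Without WT replicate 3 the value turned to 0.03, so the difference rests on that library. The 5 even libraries rest on 1427 to 1740 counts each, with a counting error of at most 2.65%.

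The same library had leukocyte, lymphocyte, liver and kidney transcripts at their highest, and Cxcl12 is made in the stroma of several of those tissues. Per 100 pan-leukocyte counts Cxcl12 stood at 35.8, 32.9 and 23.9 in VEGF/LysM and at 31.3, 25.8 and 22.9 in WT, a spread of 1.56-fold over the 6 libraries. Per 100 pan-endothelial counts it stood at 8.15, 7.02 and 8.18 in VEGF/LysM and at 6.81, 7.75 and 27.9 in WT, a spread of 4.10-fold. With WT replicate 3 left out, the spread was 1.50-fold on the leukocyte ratio and 1.20-fold on the endothelial ratio. The narrower spread on leukocyte counts thus rests on that library. Markers of capsule, fibroblasts and mural cells, which include sources of Cxcl12, summed to 713 to 1049 CPM in VEGF/LysM and to 924 to 1109 CPM in WT, with 5 of the 17 highest in WT replicate 3. Pdgfrb, a receptor of mural cells, was lowest in that library at 44.9 CPM. The smooth muscle genes Acta2 and Myh11 were highest there, at 76.9 and 49.7 CPM, and Acta2 lay wholly lower in VEGF/LysM, at 20.6, 32.3 and 17.1 CPM against 37.8, 37.6 and 76.9 CPM in WT. Which tissue the extra Cxcl12 transcripts came from was not tested.

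Ackr3 (ENSMUSG00000044337, chromosome 1, 90203980 to 90216751, plus strand) did not separate the groups. It stood at 147, 140 and 317 CPM in VEGF/LysM replicates 1 to 3, and at 234, 153 and 142 CPM in WT replicates 1 to 3. VEGF/LysM replicate 3 and WT replicate 1 were the high libraries, and the other 4 lay within 140 to 153 CPM. Means were 201 ± 100.005 CPM in VEGF/LysM and 176 ± 50.4 CPM in WT (SD, n = 3 each), with a log2 fold change of 0.19 ± 0.37 (SE, 95% interval -0.68 to 1.06). Without WT replicate 3 it was 0.05. The direction turned without VEGF/LysM replicate 3, to -0.30. These values come from 1910 to 5379 counts, so counting error was at most 2.29%.

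The libraries with much Ackr3 were those with the most chromaffin transcripts. The 8 markers of the adrenal medulla summed to 5846, 6022 and 9542 CPM in VEGF/LysM replicates 1 to 3 and to 7071, 5473 and 3897 CPM in WT replicates 1 to 3. Th, the first enzyme of catecholamine synthesis, stood at 385, 387 and 731 CPM in VEGF/LysM and at 505, 363 and 338 CPM in WT, so it too was highest in VEGF/LysM replicate 3 and next in WT replicate 1. Per 100 chromaffin marker counts Ackr3 stood at 2.52, 2.32 and 3.32 in VEGF/LysM and at 3.31, 2.80 and 3.64 in WT. On that ratio the libraries spread 1.57-fold, against 2.27-fold on the CPM scale, and the groups overlapped. Against pan-endothelial markers Ackr3 spread 2.43-fold and against steroid-making cortex markers 2.42-fold. Pnmt, which makes adrenaline, did not share that order, at 486, 217 and 327 CPM in VEGF/LysM and 284, 191 and 170 CPM in WT. Neither did Ddc (named after its values were seen), at 41.1, 66.8 and 64.4 CPM in VEGF/LysM and 103, 47.15 and 92.1 CPM in WT. In Slc18a1 VEGF/LysM replicate 3 was highest at 61.3 CPM, but VEGF/LysM replicate 1 (44.3 CPM) came before WT replicate 1 (42.4 CPM). None of the 8 chromaffin markers was called (median log2 fold change 0.33, or 0.21 without WT replicate 3), and their part in the Ackr3 values was not tested.

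**Figure D3:**
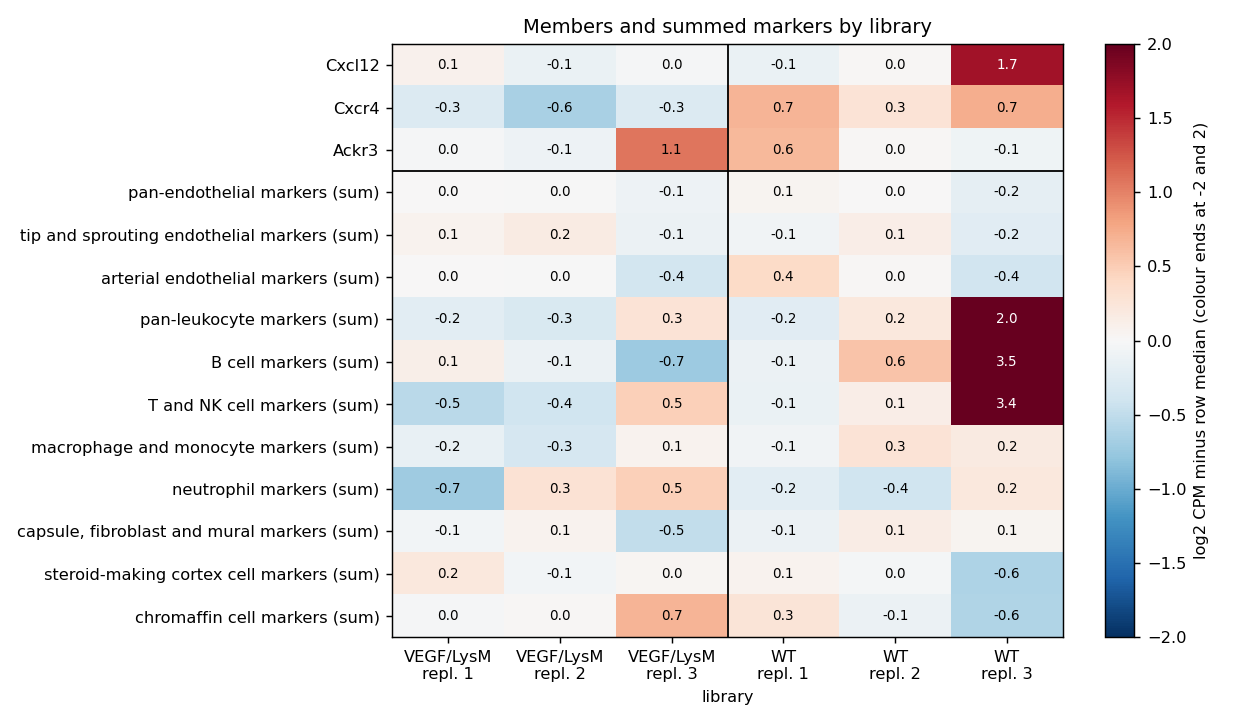
Log2 CPM of the 3 genes and of the summed markers of 11 cell type lists in each library, each row minus its own median over the 6 libraries; red is above and blue below the row median, the colour scale ends at -2 and 2, and the VEGF/LysM libraries stand left of the WT libraries. Cxcl12 peaks with the lymphocyte rows in WT replicate 3, Ackr3 peaks with the chromaffin row in VEGF/LysM replicate 3, and the Cxcr4 row differs in sign between the groups.

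Per kilobase of exon, Ackr3 was the most abundant of the 3 in VEGF/LysM glands and in WT glands. On the scale of CPM per kilobase, with merged exon lengths of 3348 bases for Ackr3, 1808 for Cxcr4 and 8176 for Cxcl12, Ackr3 averaged 60.1 in VEGF/LysM and 52.7 in WT. On that scale Cxcr4 averaged 11.8 in VEGF/LysM and 23.0 in WT, and Cxcl12 averaged 10.7 in VEGF/LysM and 18.5 in WT. The Cxcl12 length merges 4 transcripts with different last exons, so its level per kilobase is the least certain. Ackr3 over Cxcr4 per kilobase was 3.45, 4.23 and 7.39 in VEGF/LysM and 2.83, 2.45 and 1.66 in WT. The scavenger receptor thus exceeded the signalling receptor in transcript level in every library, with no overlap of the ratio between the groups, and this ratio contains the Cxcr4 values already described. Cxcl12 over Cxcr4 per kilobase was 0.903, 1.0 and 0.836 in VEGF/LysM and 0.401, 0.588 and 1.358 in WT, with overlap through WT replicate 3.

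**Figure D4:**
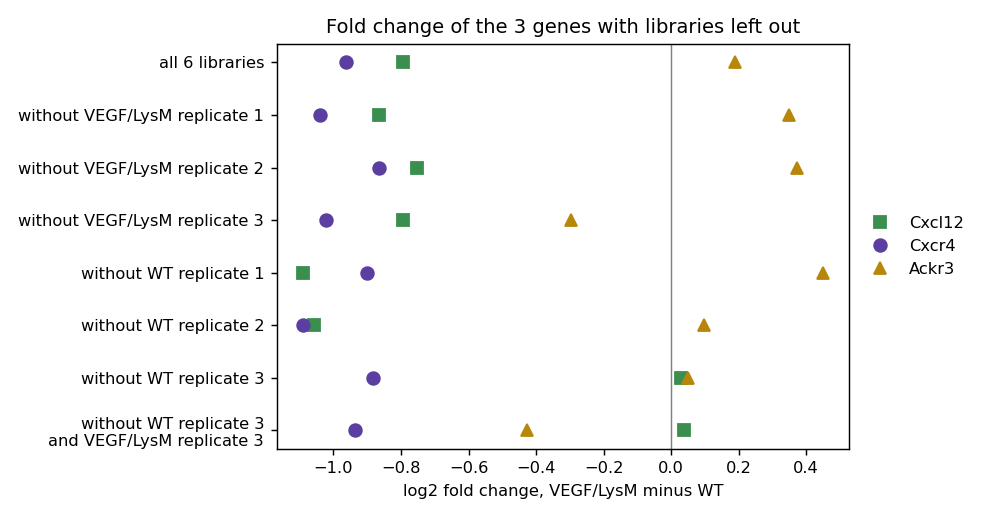
Log2 fold change of Cxcl12, Cxcr4 and Ackr3 (VEGF/LysM minus WT) in the fit of all 6 libraries and with each library, or both libraries with liver transcripts, left out. Cxcr4 stays between -1.09 and -0.87 with any single library left out, Cxcl12 turns to 0.03 without WT replicate 3 and Ackr3 to -0.30 without VEGF/LysM replicate 3.

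The other genes of the axis showed no call. Of 67 genes listed for it, 62 passed the filter on low counts, and edgeR's test called 0 higher and 0 lower, with adjusted p = 0.999 for each gene. With 28 above 0 and 34 below (49.7% of all genes tested lay below), their median log2 fold change was -0.05, or 0.01 without WT replicate 3, against 0.0013 over all genes tested. At an unadjusted p under 0.05 there were 3 of 62 lower in VEGF/LysM, against 1.94% of all genes, and 0 higher, against 0.871%. That count moved with the libraries used: it was 0 of 63, 1 of 62 and 1 of 62 without VEGF/LysM replicate 1, 2 or 3, against 0.845%, 1.76% and 1.26% of all genes in those fits. It was 8 of 63, 6 of 63 and 1 of 63 without WT replicate 1, 2 or 3, against 5.4%, 7.6% and 2.09% of all genes. Without both libraries that carried liver transcripts it was 2 of 62, against 2.31%. With all 6 libraries the 3 were Dpp4, a protease that inactivates CXCL12, Rac2, a GTPase of leukocyte movement, and Rgs16, which shortens Gi signals. Each was high in WT replicate 3, at 94.5, 101 and 260 CPM, and without that library their log2 fold changes were -0.01, -0.43 and -0.05. Mmp9, a metalloprotease that cleaves CXCL12, had 0.71 ± 0.65 (SE) at no more than 2.06 CPM. Groups lay wholly apart for 3 of the 62 higher in VEGF/LysM (Akt1, Crk and Sox17, against 3.54% of all genes) and for 2 lower (Hmgb1 and Gnai2, against 2.41%), shares near the background.

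Among the other ligands and binding partners, 5 of 8 tested were below 0. Mif, a cytokine that also binds CXCR4, had a log2 fold change of -0.13 ± 0.16 (SE). Cd74, the MIF receptor and MHC class II chaperone, stood at 334, 343 and 846 CPM in VEGF/LysM and at 417, 739 and 859 CPM in WT, a log2 fold change of -0.40 ± 0.44. Hmgb1, a nuclear protein that pairs with CXCL12 outside cells, stood at 67.0, 76.1 and 66.4 CPM in VEGF/LysM and at 81.4, 79.9 and 80.6 CPM in WT (-0.21 ± 0.12). Adm, the adrenomedullin taken up by ACKR3, was at 14.7, 15.1 and 12.9 CPM in VEGF/LysM and at 17.1, 13.965 and 10.025 CPM in WT, with overlap. Cd44, a hyaluronan receptor that assists CXCR4, had 0.55 ± 0.30 and was the 1 axis gene with an unadjusted p under 0.05 when WT replicate 3 was left out (0.71, against 2.09% of all genes in that fit). Sdc4, a heparan sulphate proteoglycan that holds CXCL12, had -1.78 ± 0.80, and WT replicate 3 held 505 CPM of it while the other 5 libraries held 54.1 to 70.4 CPM. Cd164 had -0.11 ± 0.21 and Cxcl14 0.44 ± 0.34, and Cxcl11, another ligand of ACKR3, was below the filter.

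Behind the receptor, the Gi proteins and messengers had 5 of 14 above 0 with a median of -0.07. Gnai2, the main Gi protein of leukocytes, stood at 269, 275 and 243 CPM in VEGF/LysM and at 288, 288 and 287 CPM in WT (-0.13 ± 0.13). Gnai1 had a log2 fold change of 0.39 ± 0.22 and Pik3cd, a leukocyte PI3 kinase, -1.15 ± 0.56, which became -0.17 without WT replicate 3. Motility effectors had 6 of 13 above 0 with a median of -0.17, or 0.02 without WT replicate 3. Of these 13, 3 also belong to the pan-leukocyte list besides Rac2, namely Coro1a, Lcp1 and Dock2, and all 4 peaked in WT replicate 3. Genes that switch off or degrade the receptor had 7 of 12 above 0 with a median of 0.07. Grk2, the kinase that starts desensitisation, had -0.40 ± 0.23 (-0.11 without WT replicate 3).

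Transcription factors tied to the axis had 6 of 11 above 0 with a median of 0.04 and 0 called. Hif1a and Nrf1 were named after their values were seen, as factors of sites in the stretches printed. Hif1a, a HIF subunit stabilised in hypoxia, was at 64.2, 47.3 and 49.6 CPM in VEGF/LysM and at 47.8, 64.7 and 65.1 CPM in WT. Nrf1 was at 24.2, 20.0 and 19.4 CPM in VEGF/LysM and at 24.4, 21.1 and 23.7 CPM in WT. Both overlapped between the groups. Klf2, a factor induced by shear stress, had -0.52 ± 0.31, or -0.13 without WT replicate 3, and Foxf1 had -0.92 ± 0.60 at no more than 2.23 CPM.

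**Figure D5:**
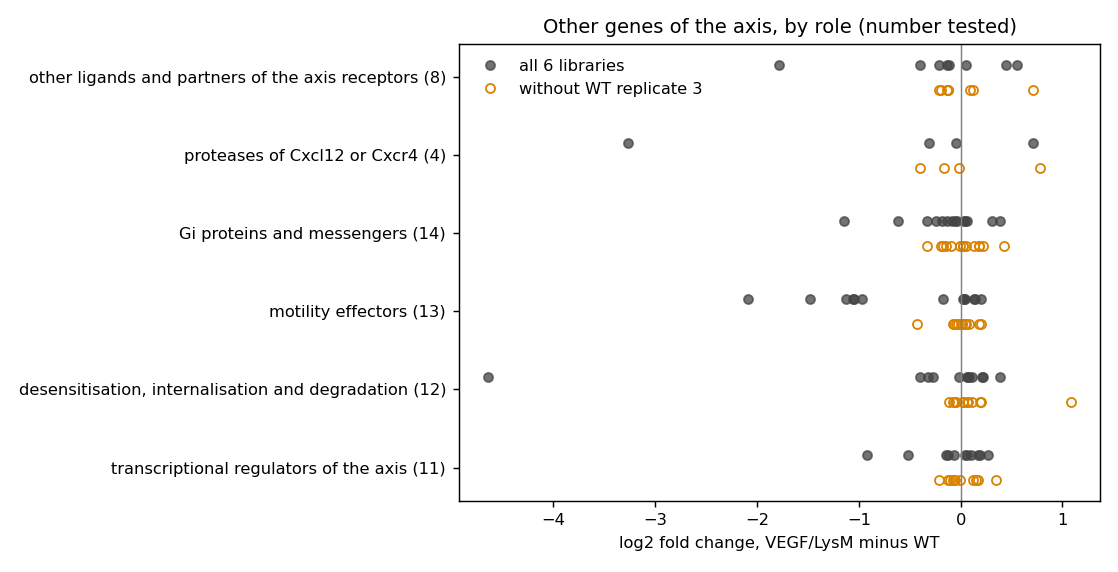
Log2 fold changes (VEGF/LysM minus WT) of the 62 tested genes of the axis other than the 3 members, by role, from all 6 libraries (filled) and without WT replicate 3 (open). The values far below 0, down to that of Rgs16, draw in towards 0 when WT replicate 3 is left out.

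Genes whose levels over the 6 libraries were most like each member were ranked by Pearson correlation of log2 CPM among 10515 others with a mean of at least 10 CPM. With so few libraries such values serve only to describe, and all points share the same libraries and scaling. Cxcr4 was closest to Slc2a1, the glucose transporter GLUT1 (r = 0.995, n = 6), followed by Mkks, Zc3h10, Rexo4 and Hba-a2 (r = 0.978 to 0.960). Slc2a1 had a narrower range, at 28.0, 25.6 and 28.4 CPM in VEGF/LysM and 33.3, 31.1 and 34.0 CPM in WT. Hba-a2, an alpha globin gene near-identical to Hba-a1, stood at 5.86, 3.26 and 5.12 CPM in VEGF/LysM and at 24.3, 7.16 and 22.2 CPM in WT. Hba-a1, not among the 5 and named after its values were seen, stood at 63.4, 35.5 and 57.3 CPM in VEGF/LysM. In WT it stood at 254, 75.9 and 192 CPM. All 5 genes lay wholly lower in VEGF/LysM, which a high likeness to Cxcr4 brings with it.

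Cxcl12 was closest to Lpin2, Gldc, Lss, Pter and Kmo (r of at least 0.998, n = 6), all high in WT replicate 3. Kmo, a tryptophan-degrading enzyme abundant in liver and kidney, stood at 163 CPM in that library and at 0.894 to 1.64 CPM in the others. This likeness is therefore that of a single library. Ackr3 was closest to Ankrd13b, Med25, Cinp, Sema4c and Akap8l (r = 0.992 to 0.984, n = 6). Sema4c, a semaphorin, stood at 30.0, 26.2 and 52.1 CPM in VEGF/LysM and at 39.6, 31.8 and 28.5 CPM in WT, with the same 2 libraries on top as for Ackr3.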

How the data were processed

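The deposited values are raw counts of each gene in each library, whole numbers with totals that differ by library. The submitters' processing notes name mm10, kallisto and DESeq2 1.36.0, with their roles, the annotation and the rounding not given in the sources used here. Per the labels' protocols, libraries followed Smart-seq2, which does not mark strand, from RNA with an integrity number of at least 8.0. Columns were matched to samples by title. Symbols for 54409 of 54532 identifiers came from GENCODE M21 (GRCm38), and the rest took at most 0.0938% of a library's counts.

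Counts were filtered (filterByExpr, minimum count 10, minimum total 15), scaled by TMM (factors 0.84 in WT replicate 3 and 1.02 to 1.05 elsewhere) and fitted with edgeR 4.0.16 (R 4.3.3), group as the only term, Benjamini-Hochberg adjustment over 16300 genes and a threshold of 0.05. The same steps were tested on simulated data. A positive log2 fold change means higher in VEGF/LysM. SE and 95% intervals come from the fit, and counting error is the inverse square root of the count. With 3 libraries a side, the smallest exact permutation p would be 0.1, and none is given. Ratios to markers are counts over summed counts within a library.

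Members, lists and the rule for named genes were chosen with earlier results of these data known. The rule took the members, their ligands and partners, a set of markers, the 2 genes of smallest p in each list and the 5 most alike. Hgs, a listed gene, has 2 identifiers and was not used. Alternatives were scaling by library size, by upper quartiles or by DESeq2's factors, dropping the filter or asking for 1 CPM in 3 libraries, DESeq2 1.42.0, limma-voom (limma 3.58.1), a replicate block, libraries left out and other marker summaries. Promoter sequences are from RefSeq (GRCm38.p6).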

Additional observations from a re-analysis of the deposited data

How the results depend on the processing

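With all 6 libraries, the direction of Cxcr4, Cxcl12 and Ackr3 held under each other scaling, filter and tool tried, and no axis gene was called under any of the alternatives run. Leaving out 1 library at a time gave log2 fold changes of -1.09 to -0.87 for Cxcr4, -1.09 to 0.03 for Cxcl12 (0.03 without WT replicate 3) and -0.30 to 0.45 for Ackr3 (-0.30 without VEGF/LysM replicate 3), and 0 to 1 genes called over all genes. The 1 gene, called without WT replicate 3, was Sumo2 (edgeR, adjusted p = 0.0368). The difference of Cxcr4 to endothelial markers ranged over -1.13 to -0.81 and that to leukocyte markers over -0.81 to 0.30 (0.30 without WT replicate 1). Without both WT replicate 3 and VEGF/LysM replicate 3, Cxcl12 was at 0.038 and Ackr3 at -0.43. The cause of these turns was not tested. Counts at an unadjusted p under 0.05 ran from 143 to 1279 with 1 library left out.

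Same-numbered samples deviated from their group means with correlations of 0.064, -0.0136 and 0.25, so the numbers were not taken to pair the samples. With the replicate block, log2 fold changes were -0.96 for Cxcr4, -0.53 for Cxcl12 and 0.11 for Ackr3, with 0 genes called (270 at an unadjusted p under 0.05).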

Other observations

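Among 22 other chemokine receptors, 14 passed the filter on low counts, 8 above and 6 below 0, at a median of 0.12 (log2 fold change), and 0 were called in edgeR's test (1 lower at an unadjusted p under 0.05, against 1.94% of all genes). That gene was Cxcr5, the follicle-homing receptor of B cells. Its level was 0.762, 0.894 and 0.118 CPM in VEGF/LysM and 0.284, 2.06 and 17.0 CPM in WT. It peaked in WT replicate 3, and its log2 fold change of -3.41 became -0.99 without that library. Ccr7, the lymph node homing receptor, named after its values were seen, was likewise at 29.1 CPM in that library and at most 1.18 CPM elsewhere. Cmklr1, the chemerin receptor, stood at 23.5, 28.5 and 25.5 CPM in VEGF/LysM and at 17.3, 22.5 and 18.9 CPM in WT, a log2 fold change of 0.40 ± 0.17 (SE) that did not pass (adjusted p = 0.999 in edgeR's test). The atypical receptors Ackr1 and Ackr2, relatives of Ackr3 that bind inflammatory chemokines, stayed at or below 3.19 CPM, and Ackr4 was below the filter.

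Of 33 other chemokines, 20 passed the filter, 5 above and 15 below 0, with a median of -0.28, or 0.08 without WT replicate 3, and 0 called. Ccl8, a ligand of monocytes, was at 6.61 CPM in WT replicate 3 and at 0.293 to 1.08 CPM elsewhere. Ccl19, the CCR7 ligand of lymph node stroma, named after its values were seen, was at 15.3 CPM in WT replicate 3 and had 0 counts in the other 5 libraries.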
